A study of Mus musculus with 6 samples.

Results

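The interferon regulatory factors (IRFs) are a family of transcription factors, and 8 of them, Irf1, Irf2, Irf3, Irf4, Irf5, Irf7, Irf8 and Irf9, were followed here by taking every probe whose annotated gene symbol was 1 of those names. That gave 15 of the 45281 probes of an Illumina mouse bead array and 8 of the 19057 genes with a symbol. The cells were immortalized proximal tubular cells of strain background C56BL/6. In 3 samples, called Glis2KD, they stably carried an anti-Glis2 short hairpin RNA, and in the 3 Control samples they carried an anti-GFP hairpin. All were harvested 7 days after lentiviral infection. Nothing in the labels tells separate infections or cultures apart within a group, so the spread behind each p-value is that among 3 arrays of a group and may be purely technical. The members were named by symbol, but the family was selected on the fold changes between Glis2KD and Control, which were known when it was proposed. Its fold changes are therefore a description, printed with their errors and without p-values. A gene is said to be called, to rise or to fall where it passed limma's threshold in the fit over all genes.

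IRFs share an amino-terminal DNA-binding domain with conserved tryptophans, which recognises GAAA repeats such as those of the interferon-stimulated response element (ISRE). Irf3, Irf7 and Irf5 are switched on by phosphorylation downstream of nucleic acid sensors and Toll-like receptors and induce interferons and cytokines. Irf9 is the DNA-binding subunit of the complex ISGF3, which also holds Stat2, Irf1 activates and Irf2 mostly represses shared target sites, and Irf4 and Irf8 are best known from lymphoid and myeloid cells. Tubular epithelial cells carry interferon receptors and respond to interferons.

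The deposited values were linear intensities, taken from their level to have the background still in them. The most frequent intensity on the arrays was 114, and a probe was taken to be above background on an array where it exceeded 143. On each array 37.8% of probes did. Distance from background is given as a group's mean intensity divided by the most frequent value, and it says how far a probe stood clear of empty signal, not how much transcript there was, since probes differ in brightness. Glis2, the targeted gene, had intensities of 169, 161 and 176 in the Glis2KD samples, against 278, 234 and 230 in the Control samples, on its brighter probe ILMN_1226316. Its log2 fold change was -0.55 ± 0.092 (SE), with limma's adjusted p = 6.36e-05, and it fell by 58.8% once the most frequent value was subtracted from the means. The second probe, ILMN_2745305, had 145, 177 and 161 in the Glis2KD samples, against 216, 212 and 191 in the Control samples, with a log2 fold change of -0.36 ± 0.09 (SE), and it fell by 48.9% after the same subtraction. The study's own test of knockdown, stated as over 80%, was not analysed here. The cells were also checked against a list of proximal tubule and more general epithelial markers. Of 16 measured, 7 were above background in their mean over the 6 arrays, which is what above background means for genes and lists here. Of the 16, 4 fell and 2 rose, where limma called 22.5% of all genes and 44.8% of genes above background. The water channel Aqp1 fell to 365 ± 101 in the Glis2KD samples, against 9760 ± 706 in the Control samples (SD, n = 3). The brush-border peptidase Mme and the kidney cadherin Cdh16 were at least 5.93-fold and 2.51-fold lower, with 0 and 1 of 3 Glis2KD arrays above the limit, and the endocytic adaptor Dab2 fell by 0.46 on the log2 scale. The keratins Krt8 and Krt18, which are not particular to the proximal tubule, rose by 0.57 and 0.40. Summed intensity of the list ran from 79237 to 81207 over the Glis2KD arrays and from 67037 to 72203 over the Control arrays. Krt8 and Krt18 made up most of these sums, with means of 44535 and 30994 in Glis2KD and 29990 and 23578 in Control. The sums therefore do not describe the other markers. The called markers differed between the same groups as the IRF values given below, the 2 keratins upward and the other 4 downward. Their part in those values was not tested. The other 10 measured markers were not called. Probes of Lrp2, Cubn, Slc34a1 and Slc5a2, which encode receptors and transporters that define the mature tubule, had means under the background limit in both groups.

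Irf8, Irf2, Irf9 and Irf1 fell in the Glis2KD samples, Irf3 rose, and Irf4, Irf5 and Irf7 lay at background on all 6 arrays. That is 5 of 8 members called, 4 lower and 1 higher, where limma called 22.5% of all genes and 44.8% of the 9201 genes above background. Over the 8 members the median log2 fold change was -0.21, beside 0.0039 over all genes, and it includes the values of the 3 members at background. The groups did not overlap for 7 of the 8 members, against 32.2% of all genes, and that count includes Irf4 and Irf7, whose probes carried no signal above the limit. Of the 15 probes, 9 were above the limit on all 6 arrays, whereas 37.8% of all probes were above it on each array. Of the 15, 8 were called, 5 lower and 3 higher, and 10 had groups that did not overlap. Over all probes, dim ones included, the shares were 15.6% and 26.3%, and none was computed over brighter probes only. Counts of this kind were in view when the family was chosen, and nothing is read from them. Without Glis2KD replicate 2, without Glis2KD replicate 3 or without Control replicate 2 the number of called members was 3, because Irf1 and Irf3 were no longer called. The number was 2 with the most frequent value subtracted and 3 after normexp correction.

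**Figure D1:**
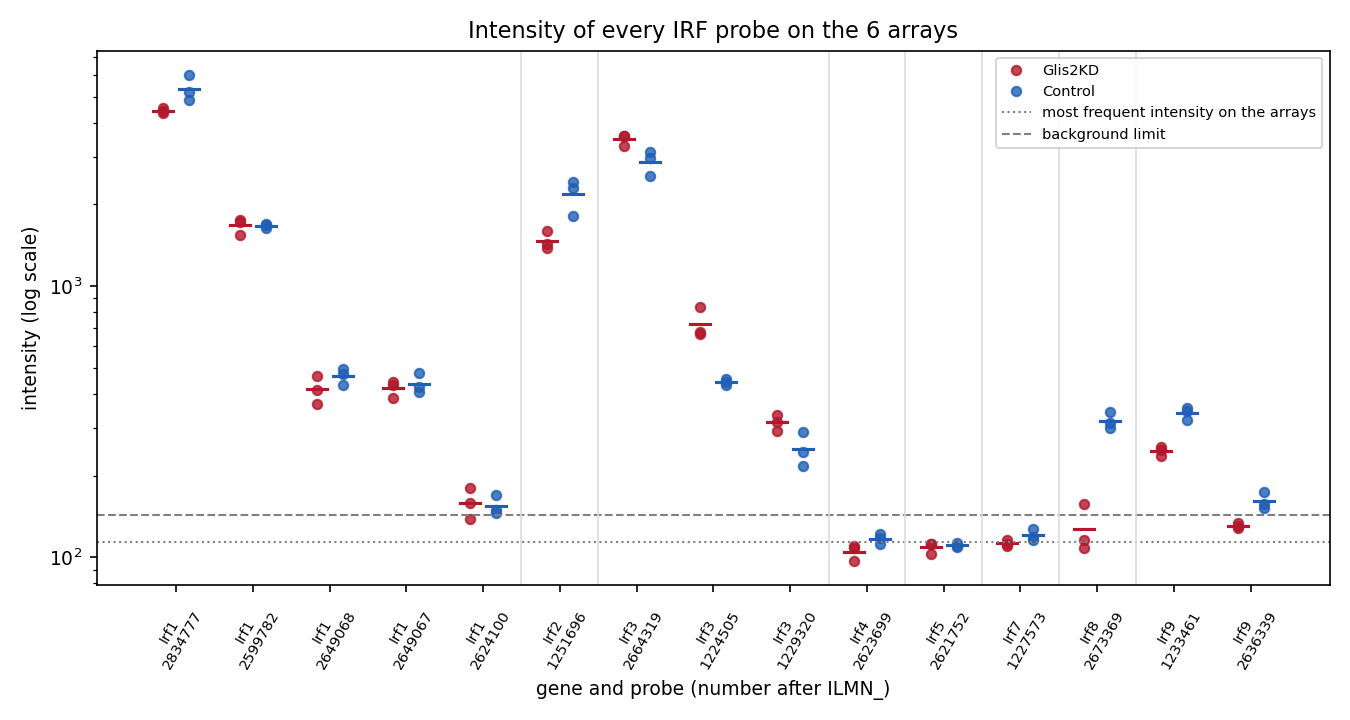
Intensity (log scale) of each of the 15 IRF probes on the 3 Glis2KD arrays (red, left) and the 3 Control arrays (blue, right), with bars at the group means. The dotted line is the most frequent intensity, 114, and the dashed line the background limit, 143. The single probes of Irf4, Irf5 and Irf7 sit at or under the limit in both groups, and that of Irf8 clears it on all 3 Control arrays and 1 Glis2KD array.

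Promoter windows from RefSeq, build GRCm38.p6, were matched by symbol for all 8 members and gave 11 windows, each running from 250 bases before a start site to 50 after it. They were searched on both strands for 3 motifs, the ISRE core, which is GAAA, then 2 bases of any kind, then GAAA again, the interferon-gamma activated site (GAS) TTCNNNGAA, which STAT dimers bind, and the GLI site GACCACCCA, the textbook motif of the Gli proteins to which Glis2 is related. Windows of 3 genes that fell, Irf8, Irf2 and Irf1, held matches and are shown with the matching bases in capitals. Irf8 (chr8:120736108-120736407, plus strand) held 2 GAS matches, at 171 to 163 and 153 to 145 bases before the start site. Irf2 (chr8:46739495-46739794, plus strand) held an ISRE core at 241 to 232 and a GAS match at 224 to 216 bases before it, which did not overlap. Irf1 (chr11:53769764-53770063, plus strand) held 1 GAS match, at 90 to 82 bases before it.
Irf8: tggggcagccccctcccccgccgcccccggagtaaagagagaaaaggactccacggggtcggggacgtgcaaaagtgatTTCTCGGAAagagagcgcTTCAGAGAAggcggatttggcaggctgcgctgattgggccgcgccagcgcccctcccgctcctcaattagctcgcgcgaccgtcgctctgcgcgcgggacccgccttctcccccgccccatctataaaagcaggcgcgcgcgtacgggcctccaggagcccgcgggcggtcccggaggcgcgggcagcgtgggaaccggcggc
Irf2: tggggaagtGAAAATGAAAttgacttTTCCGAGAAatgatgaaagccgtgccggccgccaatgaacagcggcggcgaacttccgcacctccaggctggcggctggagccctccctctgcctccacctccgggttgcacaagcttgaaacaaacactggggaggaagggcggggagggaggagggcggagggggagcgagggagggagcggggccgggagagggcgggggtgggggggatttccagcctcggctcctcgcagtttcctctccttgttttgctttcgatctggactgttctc
Irf1: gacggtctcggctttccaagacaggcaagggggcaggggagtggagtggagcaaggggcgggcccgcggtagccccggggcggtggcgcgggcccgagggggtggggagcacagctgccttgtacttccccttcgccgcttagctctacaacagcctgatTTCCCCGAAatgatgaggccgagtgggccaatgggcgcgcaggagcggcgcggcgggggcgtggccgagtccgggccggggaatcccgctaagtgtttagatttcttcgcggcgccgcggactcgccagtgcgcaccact
Among all 32851 windows of the table, 8.30% held a GAS match, 3.44% an ISRE core and 0.253% a GLI site. A match is a run of letters, not a bound site. No window of Irf3, Irf4, Irf5, Irf7 or Irf9 held any of the 3 motifs, and the second windows of Irf1 and Irf8 held none either.

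Irf3 is the latent factor that the kinases Tbk1 and Ikbke phosphorylate after cytosolic DNA or RNA has been sensed, and it was the only member called higher. Its brightest probe, ILMN_2664319, had intensities of 3295, 3593 and 3564 in the Glis2KD samples, against 3122, 2544 and 2962 in the Control samples. The lowest Glis2KD array lay above the highest Control array by a small margin. The log2 fold change was 0.28 ± 0.093 (SE), at a distance from background of 30.7 times in Glis2KD and 25.3 times in Control. A second probe, ILMN_1224505, had 679, 668 and 835 in the Glis2KD samples, against 441, 432 and 456 in the Control samples, and here the groups were far apart, with a log2 fold change of 0.71 ± 0.091 (SE). It stood 6.40 times the background value in Glis2KD and 3.90 times in Control. The third, ILMN_1229320, had 334, 315 and 293 in the Glis2KD samples, against 244, 217 and 289 in the Control samples, a log2 fold change of 0.34 ± 0.098 (SE) at 2.76 and 2.20 times background. All 3 probes carry the same transcript accession, ran in the same direction and passed limma's threshold in the fit over all probes, as 15.6% of probes did. That share counts dim probes too, whereas the 3 Irf3 probes were above the limit on every array. Irf3 lies on chromosome 7, where its 50 nearest measured genes above background had a median log2 fold change of 0.20. Of these 50, 21 were called higher and 5 lower, beside 22.1% and 22.8% of all genes above background. Relative to those neighbours the brightest Irf3 probe had 0.07 and was no longer called. Over the mean of the 3 Irf3 probes the log2 fold change was 0.44.

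Irf7, which amplifies type I interferon production, and Irf5, which acts with Myd88 in the induction of inflammatory cytokines, gave no signal above background. The Irf7 probe ILMN_1227573 had 112, 110 and 116 in the Glis2KD samples, against 127, 119 and 116 in the Control samples, or 0.991 and 1.06 times the background value. The Irf5 probe ILMN_2621752 had 112, 112 and 103 in the Glis2KD samples, against 109, 110 and 113 in the Control samples, or 0.960 and 0.974 times background. No array of either group exceeded the limit for these genes, so no change is read from these values. Each rests on 1 probe, so transcripts that the probe does not detect were not measured. The neighbours of Irf7 on chromosome 7 had a median log2 fold change of 0.26. Of these 50, 27 were called higher and 2 lower, beside 22.1% and 22.8% of all genes above background. Relative to those neighbours Irf7 had -0.38 and was called, although its probe had no signal above the limit, and no change is read from that.

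Irf9 fell on both of its probes. The brighter one, ILMN_1233461, had 249, 256 and 236 in the Glis2KD samples, against 356, 319 and 345 in the Control samples. Every Glis2KD array lay well under every Control array, with a log2 fold change of -0.46 ± 0.087 (SE) at 2.17 times background in Glis2KD and 2.99 times in Control. The second probe, ILMN_2636339, had 130, 128 and 133 in the Glis2KD samples, all under the limit, against 152, 174 and 158 in the Control samples, all above it. That makes it at least 1.13-fold lower, with the limit in place of the Glis2KD arrays, at 1.15 and 1.42 times background. Because background makes up much of these intensities, the log2 fold change of the brighter probe was -0.77 with the most frequent value subtracted, and Irf9 was called under all 16 alternatives. The median over its chromosome 14 neighbours was -0.023. Its partner Stat2 fell to 206 ± 5.77 in the Glis2KD samples, against 332 ± 10.6 in the Control samples (SD, n = 3), a log2 fold change of -0.69 with limma's adjusted p = 9.57e-07. Stat2 was named after its value had been seen.

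Irf2, the repressor of the pair with Irf1, fell. Its single probe, ILMN_1251696, had 1596, 1432 and 1385 in the Glis2KD samples, against 2427, 2295 and 1815 in the Control samples. The groups were separate, and Control replicate 3 lay nearest to the Glis2KD samples. The log2 fold change was -0.56 ± 0.10 (SE) at 12.9 times background in Glis2KD and 19.2 times in Control. It was -0.68 without Control replicate 3 and -0.48 without Control replicate 1. With the most frequent value subtracted it was -0.60 and no longer called. The median over its chromosome 8 neighbours was -0.20. Of these 50, 22 were called lower and 7 higher, beside 22.8% and 22.1% of all genes above background. Relative to those neighbours Irf2 had -0.39 and was still called.

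Irf1, an early target of interferon-gamma and an activator, had 5 probes that did not behave alike. The brightest, ILMN_2834777, had 4527, 4416 and 4367 in the Glis2KD samples, against 6005, 5192 and 4873 in the Control samples. The groups did not overlap, although the Control arrays were spread widely, and the log2 fold change was -0.27 ± 0.091 (SE) at 39.0 and 47.1 times background. The second, ILMN_2599782, had 1723, 1549 and 1753 in the Glis2KD samples, against 1677, 1696 and 1640 in the Control samples, overlapping groups with a log2 fold change of 0.0014 ± 0.083 (SE) at 14.7 times background in both groups. ILMN_2649068 stood 3.66 times background in Glis2KD and 4.12 times in Control, with a log2 fold change of -0.18 ± 0.094 (SE). ILMN_2649067 stood 3.69 and 3.84 times background, with -0.053 ± 0.088 (SE). The dimmest, ILMN_2624100, had 159, 138 and 181 in the Glis2KD samples, against 169, 149 and 146 in the Control samples, close to the limit at 1.40 and 1.36 times background, with a log2 fold change of 0.03 ± 0.097 (SE). In these 4 further probes the groups overlapped and none was called, so the fall of Irf1 rests on 1 probe of 5, all annotated to the same transcript accession. Over the mean of its probes Irf1 had -0.09 and was not called, and it was called in 7 of 16 alternatives. Without Control replicate 1, the brightest Control array, the log2 fold change was -0.18.

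Irf8 fell in the Glis2KD samples to a level at background. Its single probe, ILMN_2673369, had 108, 115 and 157 in the Glis2KD samples, against 345, 311 and 299 in the Control samples. The Control arrays lay clearly above background, at 2.80 times the most frequent value. In Glis2KD the mean was 1.12 times that value, with 2 arrays under the limit and replicate 3 just over it. With the limit in place of the 2 arrays under it, Irf8 was at least 2.16-fold lower. The fitted log2 fold change, -1.34 ± 0.11 (SE), was -1.74 after normexp correction and -3.19 after subtraction, so its size depends on how background is treated and the bound is what the arrays measured. Irf8 was called lower under all 16 alternatives, and without Glis2KD replicate 3 the log2 fold change was -1.51. The median over the 50 chromosome 8 neighbours of Irf8 was -0.026. Of these, 9 were called higher and 8 lower, beside 22.1% and 22.8% of all genes above background.

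Irf8 is a factor of macrophages, dendritic cells and B cells, and markers of blood cells were measured beside it. Of 21 measured, 17 were under the limit on all 6 arrays, 1 had a Glis2KD mean above it and 2 had a Control mean above it. The probe of Ptprc, the pan-leukocyte antigen CD45, had 116 ± 14.6 in the Glis2KD samples and 118 ± 2.23 in the Control samples (SD, n = 3 each). Spi1, the myeloid partner of Irf8, had 117 ± 8.95 in the Glis2KD samples and 138 ± 11.0 in the Control samples and was not called. Of the markers called, Laptm5, a lysosomal membrane protein of blood cells, was at least 1.21-fold lower in Glis2KD, and Csf1r, the receptor of macrophage colony-stimulating factor, rose by 0.44 on the log2 scale. The summed intensity of the list ran from 2512 to 2625 over the Glis2KD arrays and from 2603 to 2681 over the Control arrays. The pan-leukocyte marker Ptprc was at background in both groups. Csf1r had 253 ± 31.0 in the Glis2KD samples and 187 ± 20.0 in the Control samples (SD, n = 3 each), above the limit on all 6 arrays. In bulk RNA fewer cells of a type and less RNA per cell cannot be told apart. Irf4, the relative of Irf8 in lymphocytes, had 108, 96.6 and 110 in the Glis2KD samples, against 118, 112 and 121 in the Control samples, on probe ILMN_2623699. These values, 0.923 and 1.03 times background, are under the limit throughout, and no change is read from them.

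**Figure D2:**
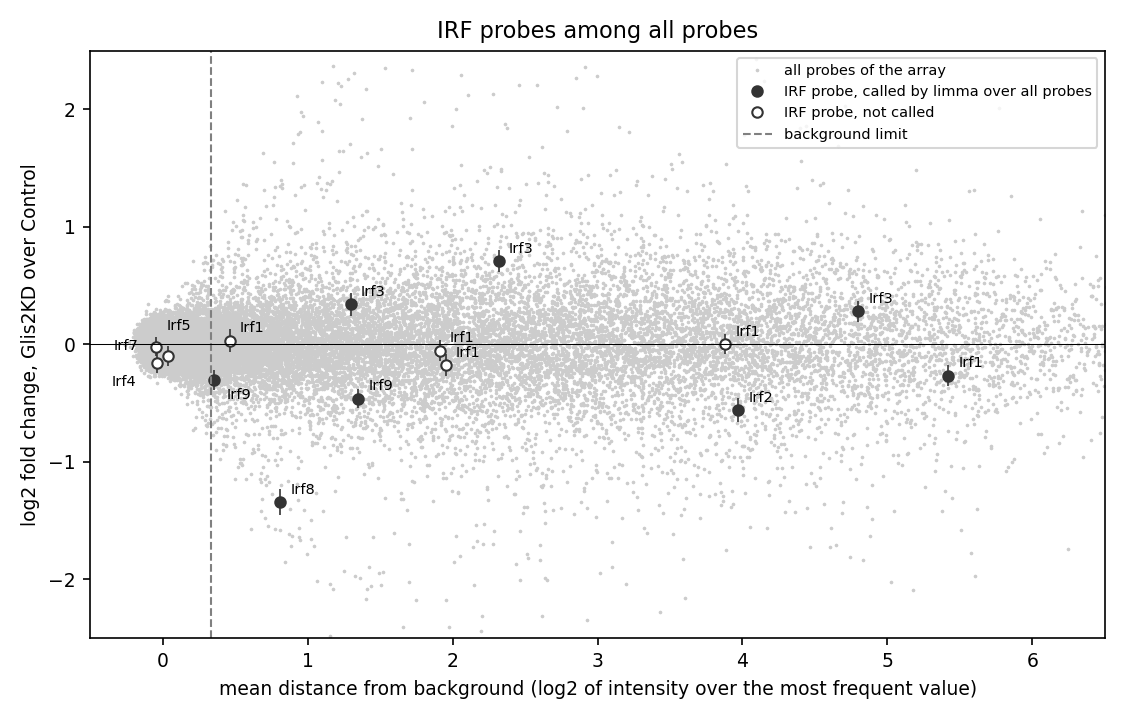
Log2 fold change of Glis2KD over Control (vertical axis) against mean distance from background on the log2 scale (horizontal axis) for the 15 IRF probes (circles with SE bars, filled where limma called the probe) among all probes (grey). The 8 called probes are 3 of Irf3, 2 of Irf9 and 1 each of Irf1, Irf2 and Irf8, and the plotted range leaves out 563 probes of the array.

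**Figure D3:**
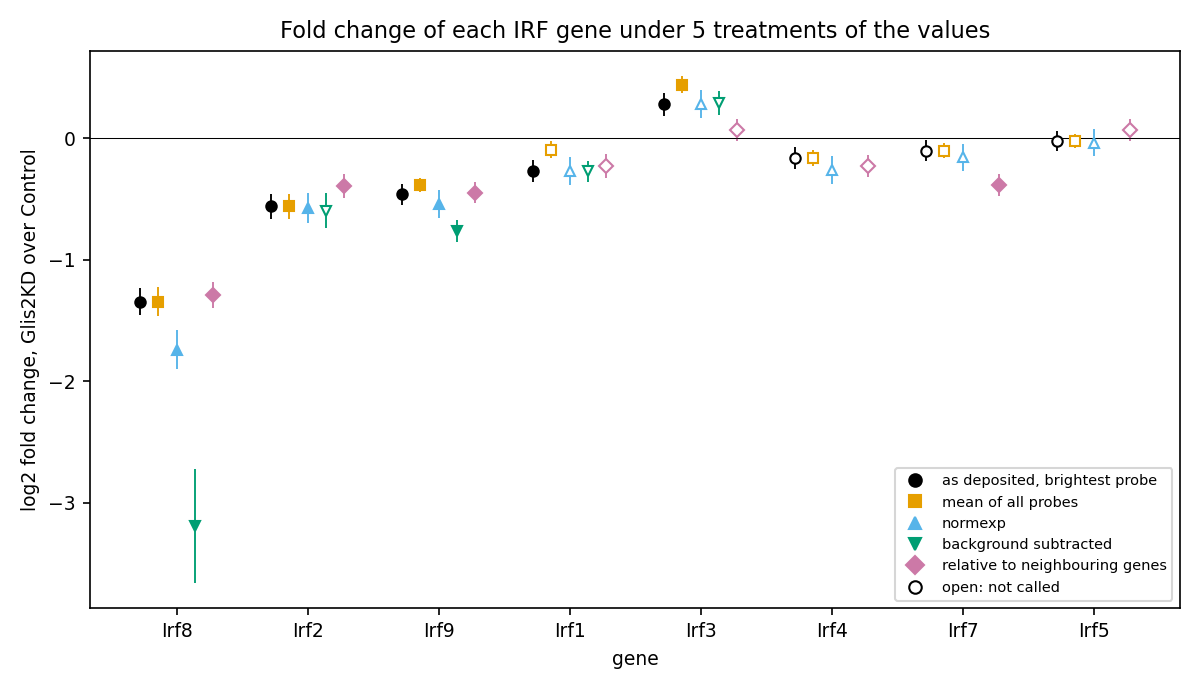
Log2 fold change with SE of each IRF gene under 5 treatments of the values, filled where called. Irf8 and Irf9 are called lower in all of them, and Irf2 in all but background subtraction. Irf3 is near 0 relative to neighbouring genes on its brightest probe, and its further probes were not set against the neighbours. Irf4, Irf5 and Irf7 are at background, so that their points carry no fold. That holds also for the Irf7 point relative to neighbouring genes, -0.38, which is filled because it was called.

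The pathway around the IRFs was described with 4 lists, and 3 genes stand on more than 1 of them. Among interferon receptors and JAK-STAT signalling genes, 10 of 19 measured fell and 1 rose, with a median log2 fold change of -0.47. Of these 19 genes 17 were above background, where limma called 22.8% of genes lower and 22.1% higher. Ifngr1, a chain of the interferon-gamma receptor, rose to 1939 ± 130 in the Glis2KD samples, against 720 ± 60.6 in the Control samples (SD, n = 3), with limma's adjusted p = 1.91e-11. The kinase Tyk2 and the receptor chain Il10rb fell by 0.84 and 0.79 on the log2 scale, as did Pias1, an inhibitor of activated STATs, by 0.79.

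Of 22 sensors, adaptors and kinases that act upstream of Irf3, Irf5 and Irf7, 9 fell and 1 rose, and 15 were above background. Among all genes limma called 11.4% lower and 11.1% higher, and among those above background 22.8% and 22.1%. The count called was 6 with the most frequent value subtracted and 6 without Glis2KD replicate 2. The adaptor Sting1, which leads from cytosolic DNA to Irf3, was at least 1.24-fold lower, with all Glis2KD arrays under the limit. Myd88 and Trim25, a ubiquitin ligase for RNA sensing, fell by 0.57 and 0.51 on the log2 scale, and Tlr2 was at least 1.14-fold higher. Of the kinases of Irf3, named after their values had been seen, Ikbke fell by 0.28 (limma's adjusted p = 0.0234), and Tbk1 had 3913 ± 127 in the Glis2KD samples and 4297 ± 341 in the Control samples (SD, n = 3 each) and was not called. Of 10 interferon ligand genes measured, 0 had a mean above background.

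Among 15 partners and corepressors, of which 8 were above background, 3 rose and 2 fell, where 22.5% of all genes and 44.8% of genes above background were called in either direction. Irf2bp2, which binds Irf2 as a corepressor, fell to 1693 ± 22.6 in the Glis2KD samples, against 2780 ± 32.1 in the Control samples (SD, n = 3), with limma's adjusted p = 4.11e-07, whereas its relative Irf2bp1 rose by 0.33 on the log2 scale. Rela, the NF-kappaB subunit, and the E protein Tcf3 rose by 0.31 and 0.45. The number called was 3 after normexp correction and 3 without Control replicate 2. Of 40 target genes of IRFs and interferons, 12 fell, 3 rose and 25 were not called, with 23 above background, beside the same 22.5% and 44.8%. Ifit3, an effector of the interferon response, had the smallest p and a log2 fold change of -1.90, Ifit2 had -0.92, the GTPase Igtp was at least 1.54-fold lower, and the guanylate-binding protein Gbp2, above the limit on 2 of 3 Control arrays, rose by 1.26. The median over these targets was -0.025.

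**Figure D4:**
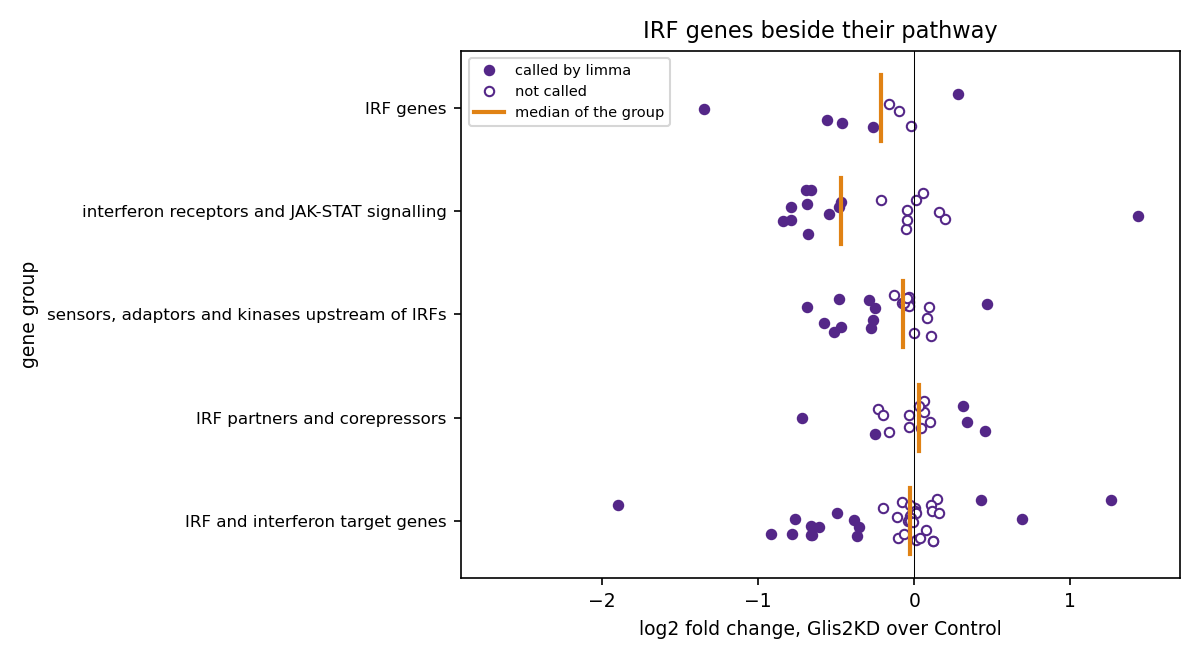
Log2 fold change of Glis2KD over Control for each IRF gene and each measured gene of the 4 pathway lists, filled where limma called the gene, with orange bars at the group medians. The receptor and JAK-STAT list has its median at -0.47 and the target list at -0.025.

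The genes most like each member over the 6 arrays were taken from 8026 genes above background on all of them, by Pearson's r of log2 intensity. Irf3 was closest to Mrps34 (r = 0.993) and Sppl2b (r = 0.990), and Irf9 to Fntb (r = 0.999) and Gmds (r = 0.998). Irf2 was closest to Avl9 (r = 0.999) and Slc27a1 (r = 0.996), and Irf1 to Chchd10 (r = 0.994) and Hexdc (r = 0.993). The arrays form 2 groups, so these values include the difference between them. They were also picked as the highest among 8026 genes over only 6 arrays, so their size is no evidence of shared regulation. Irf8 was left out because its Glis2KD arrays were not all above background.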

How the data were processed

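RNA of 3 Glis2KD and 3 Control samples was measured on an Illumina bead array with Cy3 label. Linear intensities, 1 for each probe on each array, were deposited. From the deposited values, the authors had brought the arrays to 1 distribution (log2 medians differ by at most 0.00029) and had not subtracted background. The software behind them is not given in the sources. Of 45281 probes, 34885 carried 1 symbol in GEO's platform annotation, 10378 carried none and 18 carried several. The RefSeq table GRCm38.p6 matched 34807 by Entrez identifier. Intensities were floored at 16, which altered none, and log2 transformed, with no further normalization. Each gene was represented by its probe of highest mean. Glis2KD was compared with Control by lmFit and eBayes in limma 3.58.1 (R 4.3.3), with Benjamini-Hochberg adjustment over all genes, or over all probes for probe counts, at 0.05. Errors of log2 fold changes are those of the gene fit for a gene's brightest probe and of the probe fit for its further probes. The fit was tested on simulated data. The background limit is the mode of log2 intensity plus 3 SD of the values below it. The number of arrays limits the precision. Python 3.11.15 was used for motif searches.

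Members, lists, tests and alternatives were chosen with earlier results of these data known. The named genes were the 8 members, Glis2, up to 4 called genes of each pathway list by smallest p, and the 2 genes most correlated with each member above background. Stat2, Ikbke, Tbk1 and the cell type markers named in the text were chosen after their values were seen. Markers of fibroblasts and endothelium were also measured. Of 13, 1 had a mean above background, 1 was called higher and 1 lower, where 22.5% of all genes were called. The marker called higher, Col1a2, was under the background limit on every array. Protein sequences were not used here. Alternatives were a replicate block, quantile normalization, a floor of 32, an offset of 50, background subtraction, normexp, a filter on dim genes, eBayes with trend and robust, the mean of probes, values relative to 50 neighbouring genes, and leaving out each array. The lowest intensity was 85.4, so the floor of 32 altered no value. Quantile normalization changed little, since the arrays already had 1 distribution, so neither is a separate check.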

Additional observations from a re-analysis of the deposited data

How the results depend on the processing

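With the most frequent value subtracted, 2632 genes were called (1309 higher, 1323 lower) against 4290 (2124 and 2166). Called IRF members were then 2, called IRF probes 4 of 15 and called upstream sensors, adaptors and kinases 6. Under normexp correction 3 members and 3 partners were called. Leaving out 1 array at a time gave 3 to 5 members, 4 to 8 IRF probes, 6 to 9 upstream genes and 3 to 5 partners, including 3 members, 5 probes and 6 upstream genes without Glis2KD replicate 2, and 3 members, 4 probes and 3 partners without Control replicate 2. Fewer arrays were fitted there. For other changes the cause was not tested. The difference of Irf5, between values at background and not read as a change, had the opposite sign without Glis2KD replicate 3 (0.019) and relative to neighbours (0.067). Irf7, also at background, was called relative to neighbours (-0.38), and this is not read as a change either. No value is given for Irf4, Irf5 and Irf7 with background subtracted, since every array was then at the floor. Irf1, Irf2, Irf3, Irf8 and Irf9 kept their direction in all 16 alternatives, with ranges of -0.33 to -0.09, -0.68 to -0.39, 0.07 to 0.44, -3.19 to -1.07 and -0.77 to -0.38. Except for the mean of probes, these alternatives all used a gene's brightest probe, so they do not describe the further probes of Irf1, Irf3 and Irf9. Replicate numbers did not pair the samples: deviations of same-numbered arrays correlated at -0.099, -0.042 and -0.046 over 9201 genes. With the replicate number as a block, 4119 genes, 5 IRF members and 7 IRF probes were called. The list counts not named here stayed within 1.5 times. The alternatives for IRF probes were chosen after seeing the data. Signal over background sets what can be measured, and Irf4, Irf5 and Irf7 had none.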
